A study of Drosera capensis with 12 samples.

Results

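The data compare closed with open traps, the sticky leaves of the carnivorous plant Drosera capensis (Cape sundew), across both ways in which closure was brought about. All 12 libraries of the series took part, 6 from closed and 6 from open traps. The GSH experiment held 3 libraries of traps closed by glutathione (GSH), applied to the petiole at 100 mM, and 3 of traps without the small molecule, called the GSH mock. The fly experiment held 3 libraries of traps closed on living fruit flies and 3 of unstimulated traps, called the fly mock. Groups follow the sample titles, although the agent given in a further label of the 3 fly-closed libraries is GSH. The labels give neither the time between stimulus and harvest nor whether each library came from a plant of its own. The p-values therefore speak only of the spread among these libraries, some of which may be technical.

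The Cape sundew catches insects with leaves covered in tentacles that end in drops of glue. When prey is caught, the tentacles and then the blade bend around it, and in sundews the closed trap secretes digestive enzymes and takes up the nutrients released. Bending and secretion are known to follow electrical and calcium signals and the plant hormone jasmonate. Glutathione is a thiol tripeptide made by plants and animals alike, best known as a cellular antioxidant.

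The table holds 397048 de novo assembled transcript features, 227782 of them above 0 in at least 1 library. Only the 83390 features above 0 in at least 1 library of each experiment were used; 105576 were seen in the fly experiment alone and 38816 in the GSH experiment alone. Of the 83390, 44166 passed the minimum on abundance and were tested. The files pair no feature with a gene name or sequence, so the response is described by classes of features, and 4 features are named by assembly ID. Values are TPM (transcripts per 1e+06) as rescaled from the deposited signal. The libraries' deposited values summed to between 17708252 and 20453078, which is no read count, so the depth behind a feature is unknown. Fly-closed replicate 1 stood apart in that features seen in both experiments held 82.0% of its TPM, against 86.9% to 97.5% in the other 11 libraries.

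Closed traps differed from open traps, on average over both stimuli, in 6073 of 44166 features (13.8%). Of these, 3840 were higher in closed traps (8.69% of those tested) and 2233 were lower (5.06%). The rises were larger than the falls. Rises had a median average change of 1.11 on the log2 scale and falls one of -0.45, beside -0.02 over all tested features. At least 2-fold, 2147 features rose and 141 fell. At least 16-fold, the numbers were 127 and 1. Calls are from limma with the experiment as a block, at a Benjamini-Hochberg adjusted p below 0.05, and changes are differences of log2(TPM + 1), in which low features change less than in TPM itself.

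The direction of the small changes depended on scaling. With no scaling between libraries, 3209 features were called higher and 4524 lower, 41.5% higher in place of 63.2%, and the median change of all tested features moved to -0.15. Among changes of at least 2-fold the excess of rises was found with and without scaling, 1838 higher and 341 lower without it. The counts also rested on the GSH libraries. Without GSH mock replicate 1 the call fell to 3524 features, without GSH mock replicate 3 to 3706, and without GSH-closed replicate 1, 2 or 3 to 4003, 3858 and 3790. Lower calls fell to between 1014 and 1451 whichever GSH library was left out. Leaving out a GSH library also lowers the weight of that experiment in the average. Without any 1 of the fly libraries between 5868 and 6384 features were called, and 5928 without fly-closed replicate 1.

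The experiment block and the place given to the difference between the stimuli also set the count. Within the GSH experiment alone 8853 features were called, 5466 higher and 3387 lower, and within the fly experiment alone 1395, 1176 higher and 219 lower. With no experiment block the pooled comparison called 1851 features, 1550 higher and 301 lower. When the same average was taken from the model of the 4 groups, where a difference between the stimuli does not count as error, 9883 features were called, all 6073 among them. Of the 3810 added, 1978 (51.9%) were also called for a difference between the stimuli. Over the 9883, 1151 had opposite signs in the experiments.

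The middle of the distribution shows how uneven the directions were. Of the features that rose, the lower quartile of the average change was 0.69 and the upper quartile 1.82 on the log2 scale. Of those that fell, the quartiles were -0.63 and -0.33. Features that fell were nearly all expressed throughout: 2101 of 2233 (94.1%) were above 0 in all 12 libraries, against 2973 of 3840 (77.4%) of those that rose and 64.9% of all tested features. The median mean TPM of the features that rose was 4.85 in open and 15.7 in closed traps, and that of the features that fell was 23.7 in open and 15.4 in closed traps. These levels describe the called sets, which were chosen on the same values.

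**Figure D1:**
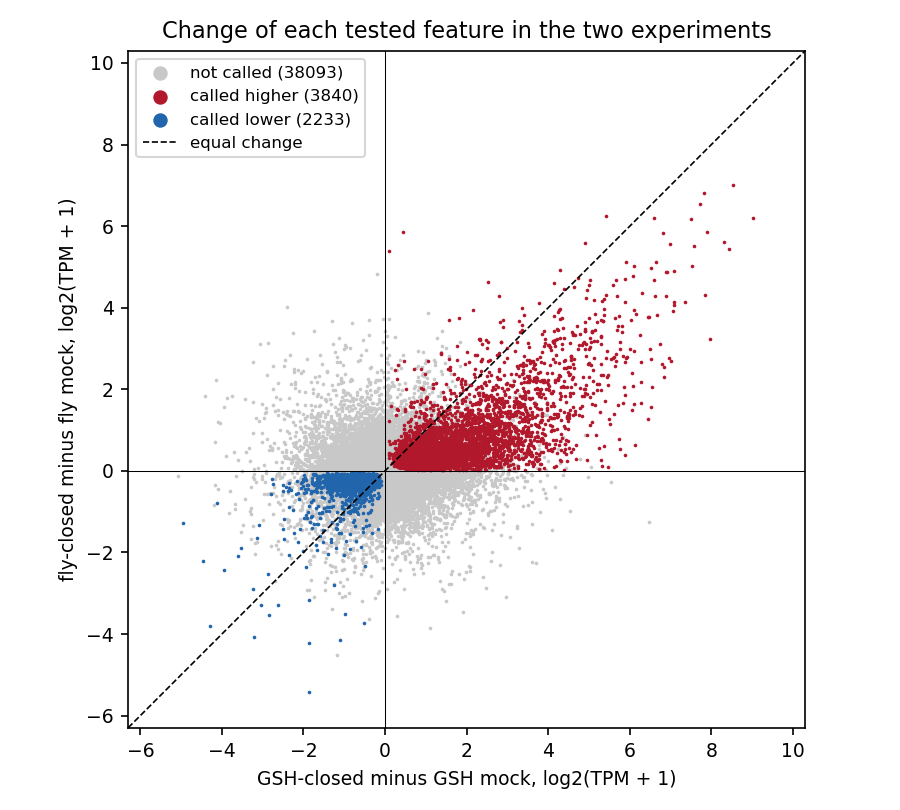
Each point is 1 of the 44166 tested features, with its change on the log2(TPM + 1) scale in the GSH experiment on the horizontal axis and in the fly experiment on the vertical axis; red features were called higher (3840), blue ones lower (2233) in the average, grey ones were not called (38093), and the dashed line marks equal changes. Red and blue points fill the quadrants in which both changes have the same sign, and most of them lie nearer to the GSH axis than the dashed line does.

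The changes in each experiment show what the average was made of. Here and in the classes below they come from a limma model of the 4 groups, in which both experiments share 1 estimate of the variance; its calls are more numerous than those of the fits to 1 experiment alone given above. Every called feature had the same sign of change in both experiments, 3840 of 3840 that rose and 2233 of 2233 that fell, beside 60.7% of all tested features. This follows largely from the fit, since a difference between the experiments enters its residual and opposite changes then cannot easily pass. Rising features had a median change of 1.62 after GSH and 0.55 after flies. Falling ones had medians of -0.64 after GSH and -0.23 after flies. The GSH change was the larger in size for 3524 of the features that rose (91.8%) and 2028 of those that fell (90.8%), beside 69.6% of all tested features. These sizes rest on the scaling. Values were divided by factors of 1.04 to 1.21 in GSH mock and 0.82 to 0.86 in GSH-closed libraries. In the fly experiment the factors were 1.01 to 1.06 in mock and 0.96 to 1.06 in closed libraries. Scaling thus made GSH rises larger and GSH falls smaller. Sizes and shares here, and the classes below, were not computed without it. The GSH change made up a median of 0.73 of the sum of both changes in either direction, with quartiles of 0.62 and 0.83 for rises and 0.62 and 0.81 for falls. Over all tested features with the same sign in both, the median was 0.67 (quartiles 0.47 and 0.82), near that of the called ones.

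A test of the difference between the closure effects called 5960 of all 44166 tested features (13.5%) in a limma model of the 4 groups. Among the features that rose on average it called 2269 (59.1%), 2240 with the larger change after GSH and 29 with the larger change after flies. Among those that fell it called 812 (36.4%), of which 806 fell further after GSH. For these features the average is not an effect size that both stimuli share. For 900 features that rose and 1513 that fell, the 95% interval of the difference lay within 1 on the log2 scale to either side of 0. These are 23.4% of the rises and 67.8% of the falls, beside 35.7% of all tested features (15766). The margin of 1 is larger than the median falls themselves, -0.64 after GSH and -0.23 after flies, so small falls meet it easily. A feature can meet it and still be called for a difference, so these counts do not show equal changes. With no scaling the difference was called for 9699 features, with GSH above flies for 26.6% of them in place of 66.3%.

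Set beside the separate comparisons in the same features, the average kept most of the fly response and part of the GSH response. The separate comparisons use the same libraries as the average, so these shares describe and do not test it. The fly comparison called 3.88% of the tested features and the GSH comparison 26.4%. After flies, 1479 features were called higher (3.35%) and 1396 of them (94.4%) were also called higher on average. After GSH, 6587 were called higher (14.9%) and 3615 (54.9%) were kept. Of the features called lower, 161 of 235 (68.5%) were kept from the fly comparison, which called 0.532% of the tested features, and 2009 of 5064 (39.7%) from the GSH comparison, which called 11.5%. Of the 2972 features called higher after GSH and not on average, 1621 were also called for a difference between the stimuli. Opposite calls were held by 40 features, 28 of them higher after GSH and lower after flies, and none of the 40 was called on average, with a smallest limma adjusted p of 0.163.

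**Figure D2:**
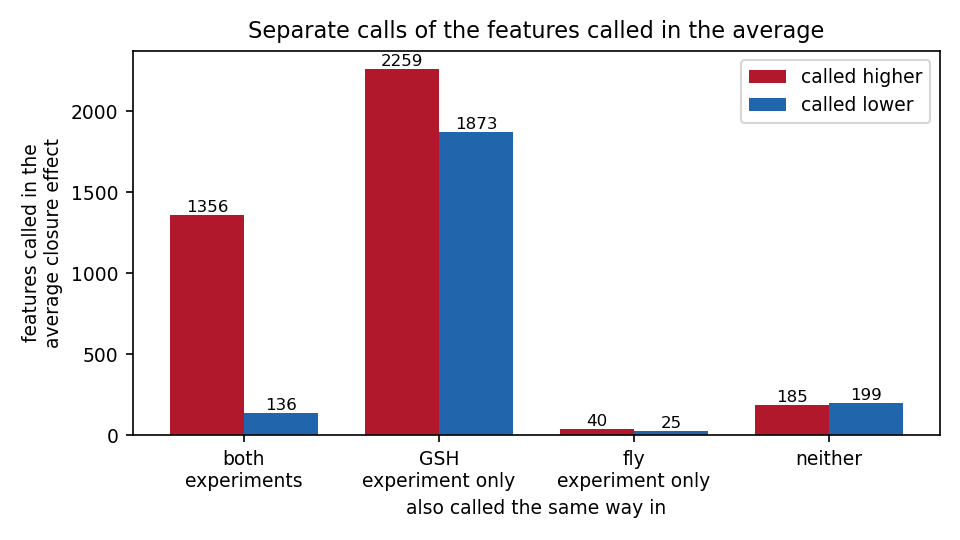
Bars give the number of features called higher (red) or lower (blue) in the average closure effect, split by whether the GSH contrast, the fly contrast, both or neither also called them the same way in the model of the 4 groups. The GSH contrast alone accounts for 2259 of the higher and 1873 of the lower calls, and both contrasts for 1356 and 136.

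The called features fall into 4 classes by the separate contrasts of the model of the 4 groups. Both contrasts called 1356 of the features that rose (35.3%), with a median change of 2.56 after GSH and 1.21 after flies. The median mean TPM of this class was 6.15 in open and 30.5 in closed traps. Only GSH called 2259 (58.8%), with medians of 1.34 and 0.33. Of these 2259, 1302 passed the test of the difference, and missing that threshold does not show that the others responded alike. Only flies called 40, with medians of 0.32 after GSH and 1.39 after flies, and 14 of these 40 passed the test of the difference. Neither comparison called the remaining 185, which had nearly equal medians of 0.70 and 0.78 and none of which passed the test of the difference. This follows largely from how the class is defined, since the fit of the average counts a difference between the experiments as error. It does not show that these features responded alike. The 185 features that rose and were called only when the experiments were averaged were of low abundance, with a median mean log2 value of 1.33, beside 3.73 for rises called in both.

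The features that fell were divided differently. Both contrasts called 136 of 2233 (6.09%), and the GSH contrast alone 1873 (83.9%). The 136 were abundant features with small changes, with a median mean TPM of 71.4 in open and 43.2 in closed traps and median changes of -0.60 after GSH and -0.33 after flies. Flies alone called 25, and neither comparison called 199, with medians of -0.52 after GSH and -0.58 after flies. Whether the share called by both differs between rises and falls was not tested, and smaller changes are harder to call in either experiment.

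With the scaling used, the GSH change made up less of the sum of both changes among the largest rises than among the smallest. Among features that rose by less than 2-fold, 11.0% were called in both experiments and the GSH change made up a median of 74.6% of the sum of both. Among the 489 that rose by 4-fold to 8-fold, 71.6% were called in both and that share was 68.8%. Of the 127 that rose at least 16-fold, 121 (95.3%) were called in both experiments, with median changes of 5.75 after GSH and 3.74 after flies and a GSH share of 59.9%. The median mean TPM of these 127 was 1.49 in open and 79.4 in closed traps. Larger changes are called more easily in each experiment. The scaling also made GSH rises larger, which weighs more in the share of a small rise than of a large one. These shares were not computed without scaling. The test of the difference called 46.6% of the smallest and 73.2% of the largest rises.

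Falls of at least 4-fold were few. There were 25, of which 10 fell at least 8-fold and 1 at least 16-fold. The 15 that fell by 4-fold to 8-fold had a median change of -2.47 after GSH and -2.35 after flies, with a median mean TPM of 12.7 in open and 0.98 in closed traps. For the 9 that fell by 8-fold to 16-fold the medians were -3.20 and -3.30. The median mean TPM of the 9 was 19.8 in open and 0 in closed traps. Only 1 of the 15 and 2 of the 9 were called in both experiments. The test of the difference called 13.3% of the 15 and 11.1% of the 9. Missing that threshold does not show that the others fell alike after both stimuli. These size classes were drawn up after the data had been seen.

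Some features were listed at 0 in one trap state. In open traps, 64 tested features were listed at 0 in all 6 libraries and above 0 in all 6 closed libraries, and all 64 were called higher, which the choice of such features makes likely. Their closed levels were low, with a median of 2.82 TPM after GSH and 1.09 TPM after flies. The highest group means among them reached 185 TPM after GSH and 94.8 TPM after flies, and 4 of the 64 had a mean of at least 10 TPM in both closed groups. The GSH-closed mean was above the fly-closed mean for 53 of the 64. The reverse pattern was held by 3 features, each called lower. Between under 1 TPM in every open library and at least 10 TPM in every closed library went 18 features, all called higher, and no feature went the other way. A listed 0 does not show absence, since the read depth is unknown.

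Separation of the libraries gives a count without a fitted variance. All 6 closed libraries lay above all 6 open libraries for 1726 of 44166 features (3.91%) and below them for 624 (1.41%), whatever the experiment. Within both experiments separately, closed libraries lay above open ones for 2787 (6.31%) and below for 1795 (4.06%). Of the features called higher, 1699 (44.2%) were apart over all 6 against 6 libraries and 2655 (69.1%) within both experiments. Of those called lower, the numbers were 538 (24.1%) and 1445 (64.7%). Separation was taken on the scaled values.

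The share of features called grew with abundance. Of 15197 features with a mean log2 value of up to 1, 3.70% rose and 0.54% fell, and of 7170 with a mean over 4 and up to 6, 14.9% rose and 12.6% fell. Of the 338 features over 8, 51 rose (15.1%) and 68 fell (20.1%). The median standard error fell from 0.27 for means over 1 and up to 2 to 0.08 for means over 6 and up to 8, so smaller changes could be called among abundant features. In the most abundant class the median change was 0.61 among rises and -0.37 among falls, beside 1.49 and -0.72 among features with means over 1 and up to 2.

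**Figure D3:**
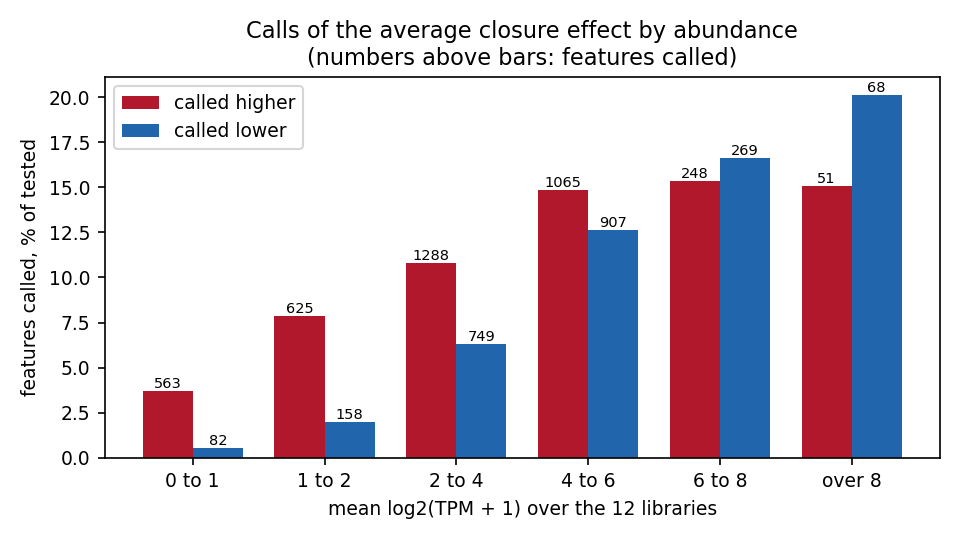
Bars give the percentage of tested features called higher (red) or lower (blue) in closed traps, by mean log2(TPM + 1) over the 12 libraries, with the number of features called above each bar. Higher calls outnumber lower ones up to a mean of 6, and lower calls outnumber higher ones above it, with 248 against 269 and 51 against 68.

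For most features that were not called, the interval of the average change was narrow on the log2(TPM + 1) scale. Of 38093 such features, 27374 (71.9%) had a 95% interval that lay within 1 on that scale to either side of 0. For the other 10719 the interval reached past 1 or -1, so an average change of that size is compatible with their values. For low features this bound leaves room for changes of more than 2-fold in TPM itself. Of the 15197 tested features with a mean log2 value of up to 1, called or not, 10290 met it. The intervals are those of single features, unadjusted for their number. Over all tested features the median standard error of the average change was 0.20 on the log2 scale.

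The sums of squares of the balanced design show how large the closure effect was beside the other sources of variation. Over all tested features, closure averaged over both stimuli held 24.0% of the variation of the log2 values. The experiment held 18.1%, the difference between the closure effects 10.8%, and the spread within groups 47.1%. Closure, experiment and difference have 1 degree of freedom each and the spread within groups 8. Spread within groups thus also adds to each of the other shares. Among the 14800 features with a mean log2 value of at least 3, closure held 36.6%, the experiment 28.8%, the difference 10.9% and the spread within groups 23.7%. In those 14800 features the median SD within a group was 0.15 in the GSH mock, 0.12 in GSH-closed, 0.11 in the fly mock and 0.10 in fly-closed traps, lower in closed than in open traps of either experiment. The difference between experiments may hold date, plants and handling, and its parts cannot be told apart.

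With each experiment's mean taken away, the first principal component held 34.0% of the remaining variance and set closed apart from open libraries in both experiments. GSH-closed libraries scored between 99.2 and 103 and their mocks between -103 and -98.7. Fly-closed libraries scored between 33.8 and 37.5 and their mocks between -37.0 and -34.9. The distance between closed and open was thus larger in the GSH experiment on this component. Component 3, with 8.61%, also set fly-closed above fly mock libraries, with scores of 34.7 to 68.5 against -57.9 to -39.8. On it the GSH-closed libraries, at -38.0 to -2.16, lay below their mocks, at 7.66 to 30.2. Components 2 (8.76%) and 4 (7.98%) mainly spread the GSH-closed libraries among themselves. Replicates 1, 2 and 3 scored 88.3, -1.95 and -94.0 on component 2 and -44.5, 96.7 and -52.7 on component 4. The components were computed from the same libraries and features and carry no test.

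**Figure D4:**
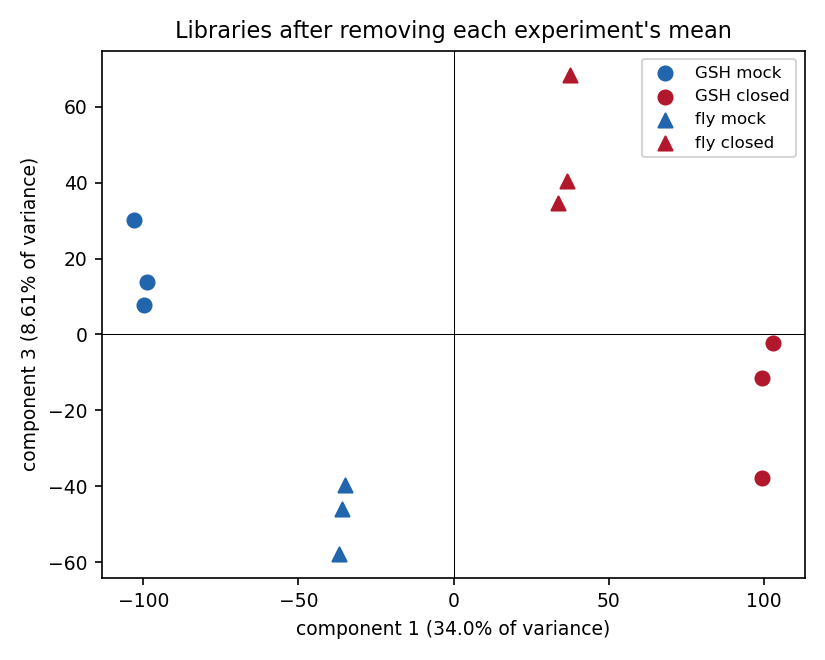
Scores of the 12 libraries on the first (horizontal, 34.0% of variance) and the third (vertical, 8.61%) principal components of log2(TPM + 1) after each experiment's mean was taken away, with closed libraries in red, open ones in blue, GSH as circles and flies as triangles. Closed libraries are positive and open ones negative on the first component in both experiments, while on component 3 closed lies above open for flies and below it for GSH.

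The 4 named features show the forms that the response took. They were picked by rule among 1436 features that rose and 1193 that fell with closed and open libraries apart within both experiments, as the largest and the steadiest average change in each direction; the steadiest has the largest moderated statistic of limma. Each is the only tested feature of its assembly component.

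The largest rise was that of TRINITY_DN2786_c0_g1. Its level was 2.62, 1.57 and 2.49 TPM in the GSH mock and 765, 772 and 783 TPM in GSH-closed traps. In the fly experiment it was 1.72, 1.54 and 1.74 TPM in the mock and 126, 127 and 134 TPM in closed traps. The open libraries of both experiments lay close together, while the GSH-closed libraries lay far above the fly-closed ones. The limma average was 6.95 ± 0.41 (SE) on the log2 scale (adjusted p = 1.28e-06), made of 8.30 ± 0.09 after GSH and 5.60 ± 0.09 after flies. The GSH change was greater by 2.70 ± 0.12 (SE, limma adjusted p = 4.09e-07).

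TRINITY_DN5183_c1_g1 was the steadiest rise. The GSH mock held it at 2.80, 2.86 and 3.23 TPM, and traps closed by GSH at 54.8, 55.5 and 59.4 TPM. The fly mock held 2.98, 2.88 and 3.06 TPM and fly-closed traps 53.4, 59.1 and 60.7 TPM. In these unscaled TPM values the open libraries of both experiments overlapped each other, and so did the closed ones; after scaling neither did. The limma average was 4.06 ± 0.08 (SE) on the log2 scale, with an adjusted p of 3.20e-10. The difference between its closure effects, 0.36 ± 0.08 (SE, limma adjusted p = 0.0182), rested on the scaling: without scaling it was -0.02 (limma adjusted p = 0.921), and over all alternatives its adjusted p ranged from 0.0130 to 0.921.

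The largest fall was that of TRINITY_DN7747_c0_g1. It went from 98.9, 125 and 99.3 TPM in the GSH mock to 4.82, 2.98 and 3.73 TPM in GSH-closed traps. In the fly experiment it went from 92.7, 90.6 and 101 TPM to 53.9, 55.1 and 53.2 TPM. The mocks overlapped, and both closed groups lay below them, the GSH-closed libraries far lower. The limma average was -2.45 ± 0.51 (SE) on the log2 scale (adjusted p = 0.0108), of which -4.12 ± 0.17 came after GSH and -0.79 ± 0.17 after flies. The difference of -3.33 ± 0.23 passed the test (limma adjusted p = 6.46e-06). The average is therefore a value that neither experiment showed, and without the experiment block its limma adjusted p was 0.0673.

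TRINITY_DN59910_c0_g1 was the steadiest fall. Its level was 16.7, 15.7 and 20.6 TPM in the GSH mock and 4.57, 4.31 and 3.95 TPM in GSH-closed traps. The fly mock stood at 28.3, 25.4 and 23.6 TPM and fly-closed traps at 11.8, 13.2 and 15.2 TPM. Fly-closed libraries lay below every GSH mock library by a small margin, and the mocks themselves did not overlap. The limma average was -1.16 ± 0.11 (SE) on the log2 scale, with an adjusted p of 5.00e-05. It fell by 1.43 ± 0.10 after GSH and by 0.88 ± 0.10 after flies, and the difference of -0.55 ± 0.14 passed the limma test narrowly (adjusted p = 0.0232, ranging from 0.00444 to 0.128 over the alternatives).

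**Figure D5:**
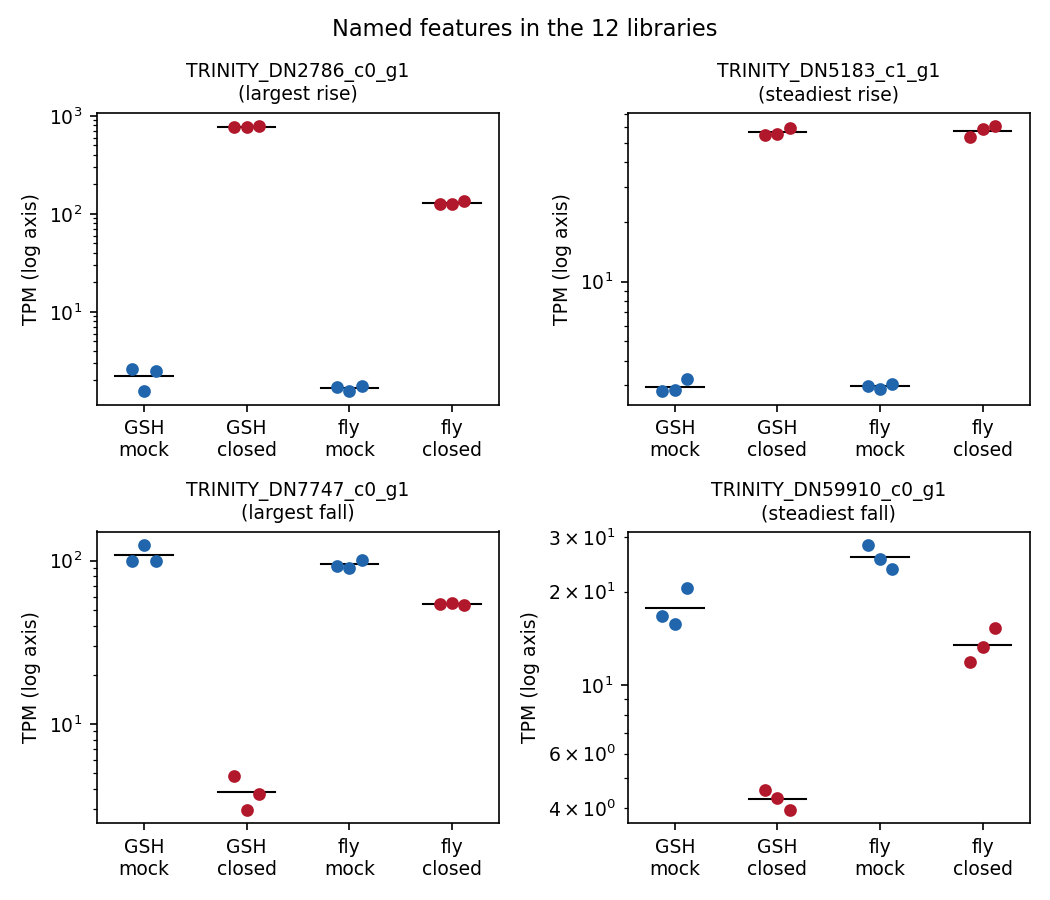
Each panel gives the unscaled TPM of 1 named feature on a log axis in the 12 libraries, with points for libraries (open in blue, closed in red) and a line for the mean of each group of 3. In unscaled TPM, as plotted, the closed levels of TRINITY_DN5183_c1_g1 overlapped between the experiments, at 54.8 to 59.4 and 53.4 to 60.7 TPM, while the closed levels of TRINITY_DN2786_c0_g1 and TRINITY_DN7747_c0_g1 differed between them.

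Among assembly components with at least 2 tested features (sister features), most that held a called feature held only 1. The 44166 tested features came from 38767 components, of which 4304 held at least 2 tested features. Of these 4304, 1342 held a called feature, 1033 of them only 1 and 309 at least 2, with at most 4 in one. In 203 of the 309 all called features rose, in 51 all fell, and 55 held both directions. Of tested features with sisters 17.4% were called, beside 12.7% of those alone in their component. Whether sisters were called together more often than these rates would give was not tested. Sister features may share reads. With values summed over each component, 5314 of 39549 components were called, 3311 higher and 2003 lower.

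The called sets took up a visible part of the RNA. Of all TPM, features that rose held 10.8% ± 0.115 in the GSH mock and 29.4% ± 0.173 in GSH-closed traps (SD, n = 3). In the fly experiment they went from 7.92% ± 0.181 to 11.9% ± 0.663 (SD, n = 3). Features that fell went from 14.9% ± 0.758 to 7.14% ± 0.0834 with GSH and from 15.8% ± 0.454 to 13.2% ± 0.880 with flies (SD, n = 3). The sets were chosen on these values, so the shares carry no test. Of the gain in mean TPM, 183 features made up 50%, and of the loss 105 features did; the 10 largest made up 11.0% of the gain and 22.2% of the loss.

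Closed and open traps were also compared in 4 measures of the whole library. The number of features above 0 was 60796 ± 945 in the GSH mock, 61751 ± 1203 in GSH-closed, 75466 ± 961 in the fly mock and 81841 ± 5058 in fly-closed traps (SD, n = 3). Closed traps had on average 3665 more, with a two-sided exact permutation p of 0.05 within experiments (400 arrangements, smallest possible p 0.005) and 0.2 after Benjamini-Hochberg adjustment over 4 measures. The 100 most abundant features of a library held 25.7% ± 1.82 and 26.2% ± 0.386 of TPM in GSH mock and GSH-closed traps, and 26.5% ± 0.813 and 24.6% ± 1.25 in fly mock and fly-closed traps (SD, n = 3; exact permutation p = 0.375). The effective number of features, the exponential of the Shannon entropy, was 5755 ± 549 and 5300 ± 200 with GSH and 6778 ± 493 and 8001 ± 1272 with flies (exact permutation p = 0.545). The features seen in both experiments held 96.5% ± 1.56 and 95.6% ± 0.206 of TPM in the GSH mock and GSH-closed traps, and 88.5% ± 1.40 and 87.2% ± 4.68 in the fly mock and fly-closed traps (SD, n = 3; exact permutation p = 0.57). Fly-closed replicate 1 carried much of these differences: its effective number was 9431, against 5087 to 7576 in the other closed libraries. Without it the average closed minus open difference in effective number went from 384 to 26.9, and that in the share of features seen in both experiments from -1.06 to 0.253 percentage points. None of the 4 measures passed after adjustment, which does not show that they were equal.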

How the data were processed

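RNA was sequenced from 12 libraries in 4 groups. The tools named, per the submitters' processing notes, are DESeq2 version 1.16.1, RSEM, Trimmomatic and cutadapt; what each did, the aligner and the assembly settings are not stated there. The authors deposited 1 table, named as RSEM counts, but this signal was not counts: of the values over 0 and under 60, 100% in each library were a whole number of steps of 1e-08 of the column sum (tolerance 0.0051), and at most 2.25% were whole (tolerance 0.005). They were divided by the library's sum and multiplied by 1e+06 and taken to be TPM, although length correction cannot be checked without feature lengths. If it was applied, short fragments may be inflated.

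Features above 0 in both experiments were tested if 3 or more libraries reached 0.526 TPM, which equals 10 deposited units in a library of median sum. Libraries were scaled by an unweighted trimmed mean of log ratios (30% of ratios and 5% of abundances trimmed at each end). Values of log2(TPM + 1) were fitted with limma version 3.58.1 (trend and robust options) in R version 4.3.3, with experiment and closure as additive terms and 9 residual degrees of freedom. Effects of each stimulus and their difference came from a model of the 4 groups. Library measures were compared by exact permutation of closed and open labels within experiments. The calculation was also run on simulated data with independent normal noise on the log2 scale, and the outcome is not given here. Changes were placed only in features with a mean log2 value of at least 3, so recovery among lower features was not tried.

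The named features were, among those called, above 0 in all 12 libraries, with a mean log2 value of at least 3 and groups apart within both experiments, the one with the largest average change and the one with the largest moderated statistic in each direction. The comparison, the filters and this rule were chosen with earlier results of these data known. Alternatives covered pseudocount, scaling, filters, variance model, design, replicate block, component sums, each experiment alone and leaving out each library. No gene lists could be applied, since the files pair no feature with a gene name.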

Additional observations from a re-analysis of the deposited data

Results flagged for a closer look

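The closure effect differed in size between GSH and flies for 5960 of 44166 tested features by the limma test of the difference itself. It also differed for all 4 named features, which is why they are listed here. For TRINITY_DN2786_c0_g1 the GSH change was 2.70 above the fly change on the log2 scale (limma adjusted p = 4.09e-07), with a range from 2.32 to 2.78 over the alternatives. For TRINITY_DN7747_c0_g1 it was -3.33 (limma adjusted p = 6.46e-06), a deeper fall after GSH, with a range from -3.70 to -3.16. For TRINITY_DN59910_c0_g1 it was -0.55 (limma adjusted p = 0.0232), and 6 of 20 alternatives did not pass. For TRINITY_DN5183_c1_g1 it was 0.36 (limma adjusted p = 0.0182), and 5 of 20 alternatives did not pass, with the sign turned when libraries were not scaled. By the gap between a library and its nearest neighbour, no closed or open library passed Dixon's 95% limit among the 6 of its state in the library measures or the named features. Each 6 came from both experiments, and a gap between the experiments widens the range. This check could therefore hardly flag a library that stood apart within 1 experiment. Fly-closed replicate 1 was nevertheless the lowest closed library in the share held by features of both experiments, at 82.0%, and the highest in effective number, at 9431.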

How the results depend on the processing

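The average change of the named features kept its direction in all 24 alternatives, and its limma call in all but 2: for TRINITY_DN7747_c0_g1 the adjusted p was 0.0673 with no experiment block and 0.0917 with the replicate block. Same-numbered closed and open libraries did not deviate together (r between -0.00488 and 0.00624), which does not show that the samples were unpaired. With the replicate block 1634 features were called, 1386 higher and 248 lower, in place of 6073, 3840 and 2233. The average in the 4-group model called 9883, 5786 and 4097; no experiment block 1851, 1550 and 301; the fly experiment alone 1395, 1176 and 219; at least 2-fold 2288, 2147 and 141; at least 2-fold with no scaling, an alternative chosen after seeing the data, 2179, 1838 and 341. Lower calls also moved to 4524 with no scaling and to 3387 in the GSH experiment alone, and calls of the difference to 9699 with no scaling. Leaving out 1 library gave 3524 to 6384 calls, 2510 to 3901 higher and 1014 to 2623 lower, and 4950 to 5919 calls of the difference. Other settings kept these counts within 1.5 times. The difference for TRINITY_DN5183_c1_g1 turned to -0.022 with no scaling. None of the library measures passed after adjustment. Closed traps had more features above 0 in all 16 alternatives, while the other 3 measures changed sign in at least 1: the share of the 100 most abundant features was 0.488 percentage points higher in closed traps within the GSH experiment in place of -0.718, and the effective number of features was -455 within the GSH experiment and -17.7 over the features of both experiments in place of 384, and 26.9 without fly-closed replicate 1. Leaving out 1 library, the difference in features above 0 ranged from 2500 to 5010 (exact permutation p from 0.025 to 0.145), and that in the share held by features of both experiments from -1.98 to 0.253. Within 1 experiment the smallest exact permutation p is 0.1. Read depth is unknown, so low features could not be weighted by it.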
